A study of Mus musculus with 8 samples.

Results

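The genes described here are the carriers that move amino acids and close relatives across membranes in the mouse, taken as every protein-coding gene whose symbol belongs to the families Slc1, Slc3, Slc6, Slc7, Slc36, Slc38 or Slc43. The rule used names only, and it found 59 of the 30387 genes in the table of normalized counts. RNA came from primary adipocytes isolated from the epididymal white fat of wild-type (WT) mice and of their Ad-Yap/Taz-KO littermates. In Ad-Yap/Taz-KO mice, Cre recombinase under the adiponectin (Adipoq) promoter deletes floxed Yap and Taz, so the deletion is limited to cells that use this promoter. Mice of both genotypes received a standard diet (SD, normal chow in the labels) or a high-fat diet (HFD) for 4 weeks from week 5 of age according to the description of the series, whereas the methods of the study give another starting age. The 4 groups are WT on SD, Ad-Yap/Taz-KO on SD, WT on HFD and Ad-Yap/Taz-KO on HFD, with 2 libraries each. According to the study, the libraries of a group come from separate mice. The study used male mice unless it says otherwise. Its methods name floxed littermates as controls for a tamoxifen-inducible line, and whether the WT littermates of the line used here carried the floxed alleles too is not given in the sources used here.

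Amino acid carriers set which amino acids a cell can take up, exchange or release. Slc7 light chains work at the cell surface only when paired with a heavy chain, mostly the Slc3a2 protein (4F2hc, CD98), whereas carriers of the Slc1, Slc6 and Slc38 families use the sodium gradient to concentrate their substrates, and Slc36 carriers use protons. Several of them stand under the control of the transcription factor ATF4, which is made when amino acids run short, and others report the amino acid content of the lysosome to the kinase complex mTORC1. White fat cells take up glutamine, small neutral and branched-chain amino acids through these carriers.

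Of the 59 members, 45 averaged 5 or more normalized counts across the 8 libraries and were tested, and 34 had a mean of at least 50. The other 14, among them Slc1a6, Slc36a3, Slc38a5, Slc6a19, Slc7a3 and Slc7a9, had means between 0.25 and 4.25 and no single value above 18. No member was at 0 in every library. Summed over all members, 52667 and 52581 normalized counts were found in WT on SD, 42831 and 43399 in Ad-Yap/Taz-KO on SD, 58653 and 58701 in WT on HFD and 46593 and 42757 in Ad-Yap/Taz-KO on HFD. Both knockout groups lay below both WT groups. The members held between 0.256% and 0.34% of a library's total.

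The totals of normalized counts ranged from 14890264 to 20994246, which corresponds to an estimated 14 to 22.3 M reads on genes. For genes with 1000 to 5000 reads both WT HFD libraries differed from each other by less than replicates in the other groups, with a squared difference of 5.99 times the Poisson expectation against 27.9, 57.9 and 72.8. For genes with 5 to 20 reads they did not, at 4.79 against 4.63 to 6.49. Their values are therefore given singly and never as a mean ± SD, and calls were also made with them averaged to 1 sample. Wwtr1, which encodes TAZ, was lower in both knockout groups than in both WT groups, with log2 fold changes of -1.56 ± 0.18 (SE) on HFD and -1.24 ± 0.18 on SD (limma adjusted p = 3.1e-05 and 0.00097). Yap1 had a log2 fold change of -0.71 ± 0.16 on SD (limma adjusted p = 0.024) and of -0.42 ± 0.16 on HFD (limma adjusted p = 0.059), where it did not pass the test.

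Markers of other cells moved with genotype and diet, and their part in the results on the transporters was not tested. The summed counts of 10 macrophage markers were 4610 and 4600 in WT on SD, 27881 and 15373 in Ad-Yap/Taz-KO on SD, 2186 and 2276 in WT on HFD and 29092 and 27256 in Ad-Yap/Taz-KO on HFD, and none of the 10 was at 0 in all libraries. In the knockout 9 of the 10 were called higher than in WT on HFD and 8 on SD, and in WT 8 were called lower on HFD than on SD. The 10 adipocyte markers summed to 278042 and 292618, 239404 and 334857, 507158 and 498937, and 262220 and 137455 in the same order, so RNA of the labelled cell type was present in every library, and this sum was lowest in the second Ad-Yap/Taz-KO library on HFD. On HFD 9 of these 10 were called lower in Ad-Yap/Taz-KO, and on SD none was called. Of 6 fibroblast and progenitor markers 4 were called higher in Ad-Yap/Taz-KO on HFD (sums of 8135 and 8406 in WT against 32784 and 37201), and none was called on SD. In these bulk preparations fewer cells of a type and less RNA per cell cannot be told apart.

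A member was called when limma, over all 18800 genes tested, gave a Benjamini-Hochberg adjusted p no higher than 0.05 and the log2 fold change reached 0.59 up or down, on the scale of log2(normalized count + 1), which understates the change of low genes. On HFD, 16 members were higher in Ad-Yap/Taz-KO than in WT, 35.6% of those tested where 17.1% of all genes were called higher, and 7 were lower, 15.6% where 15.1% of all genes were called lower. Scaling every library to the same total gave 20 higher and 6 lower members, 44.4% and 13.3% beside 24.5% and 7.23% of all genes. The median log2 fold change of the 45 members was 0.63 and that of all genes 0.095. Slc38a4, Slc38a8 and Slc6a7 passed the filter on low values only through Ad-Yap/Taz-KO on HFD, the group in which they are high. Over the 42 members and 18363 genes that the other 6 libraries alone would have kept, 14 members were higher (33.3% beside 17% of genes) and 7 were lower (16.7% beside 15.5%), with medians of 0.52 and 0.061. On SD, 6 members were higher, 13.3% against 3.21% of all genes, and 2 were lower, 4.44% against 1.5% of all genes. Here the median over the members was -0.022 and over all genes -0.014. Both libraries of Ad-Yap/Taz-KO lay above both of WT on HFD for 26 members, 57.8% beside 36.5% of all genes, and below for 10, 22.2% beside 33% of all genes. Over the same 42 members these counts were 23, 54.8% beside 35.6% of genes, and 10, 23.8% beside 33.8%. On SD they lay above for 14, 31.1% beside 22.8%, and below for 11, 24.4% beside 22.2%. With the WT HFD libraries as 1 sample 18 members were called on HFD in place of 23, 40% beside 18.3% of all genes.

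**Figure D1:**
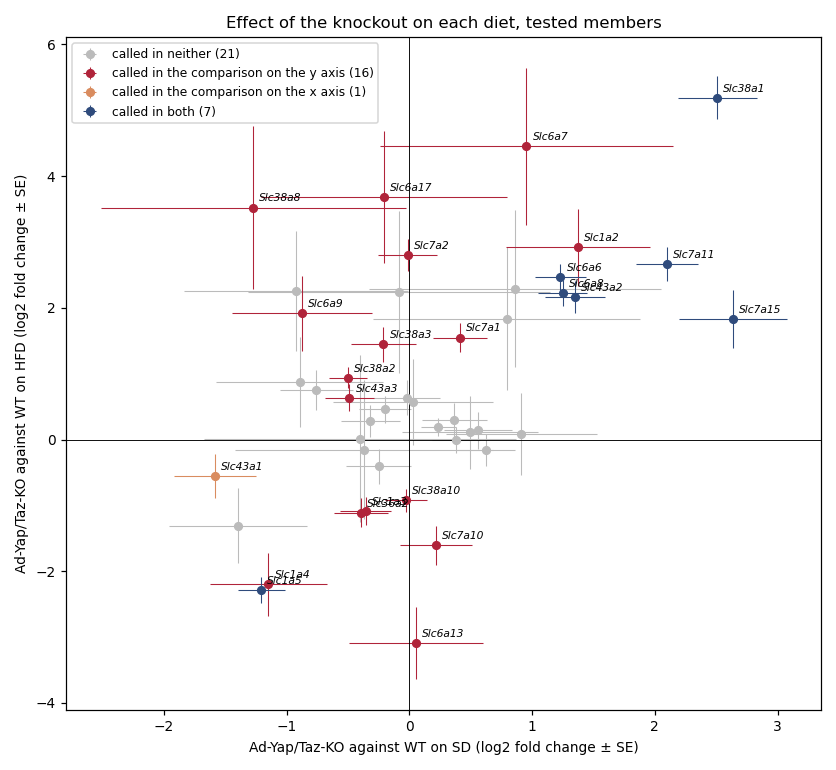
Log2 fold change between knockout and WT on HFD (y axis) and on SD (x axis) for the 45 tested members, each point 1 gene with its standard error as bars. The 7 members called on both diets lie far from 0 on both axes, Slc38a1 at 5.19 and 2.51. Another 16 were called on HFD and not on SD, among them Slc7a2, Slc7a10 and Slc6a13 near 0 on the x axis. These 16 include Slc38a8 and Slc6a7, which passed the filter only through Ad-Yap/Taz-KO on HFD. In either direction 51.1% of members and 32.2% of all genes were called on HFD, and 17.8% and 4.71% on SD.

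Sequence upstream of the members was looked at for 3 short motifs, since TEAD factors, the DNA-binding partners of YAP and TAZ, recognise GGAATG, AP-1 recognises TGANTCA and ATF4 binds amino acid response elements of the form TGATGNAA. Windows of 250 bases before the RefSeq transcription starts (GRCm38.p6) were at hand for 43 members with 63 starts, and both strands were read. GGAATG stood in 8 of the 63 windows, where 12.6% of all 32851 windows hold it. TGANTCA stood in 7 windows, where 6.75% of all windows hold it, and TGATGNAA in 4, where 3.45% of all hold it. The windows of 4 members that changed are shown, 1 with the amino acid response element, 1 with the TEAD motif and a pair with the AP-1 motif that moved in opposite directions on HFD. Slc7a11 at chr3:50443614-50443863 (minus strand) holds TGATGNAA once on each strand, Slc43a2 at chr11:75531444-75531693 (plus strand) holds GGAATG on the opposite strand, and Slc7a1 at chr5:148399905-148400154 (minus strand) and Slc38a10 at chr11:120151352-120151601 (minus strand) hold TGANTCA. The motifs do not overlap in these windows, capitals mark them, and each sequence reads 5′ to 3′ along the gene's strand.
Slc7a11: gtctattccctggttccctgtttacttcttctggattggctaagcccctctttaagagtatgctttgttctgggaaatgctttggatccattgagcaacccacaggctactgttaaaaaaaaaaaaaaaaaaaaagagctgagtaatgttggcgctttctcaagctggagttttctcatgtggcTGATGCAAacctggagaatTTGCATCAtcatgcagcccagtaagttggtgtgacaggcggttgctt
Slc43a2: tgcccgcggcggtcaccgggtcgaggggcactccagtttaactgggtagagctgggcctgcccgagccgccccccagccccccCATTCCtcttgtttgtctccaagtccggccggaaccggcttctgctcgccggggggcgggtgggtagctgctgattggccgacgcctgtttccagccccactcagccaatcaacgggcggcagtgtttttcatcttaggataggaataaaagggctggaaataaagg
Slc7a1: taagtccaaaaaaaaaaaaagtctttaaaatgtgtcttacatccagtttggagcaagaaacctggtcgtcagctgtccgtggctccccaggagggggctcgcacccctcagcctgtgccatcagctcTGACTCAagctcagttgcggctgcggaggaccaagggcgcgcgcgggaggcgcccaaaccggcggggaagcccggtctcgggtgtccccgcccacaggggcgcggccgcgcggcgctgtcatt
Slc38a10: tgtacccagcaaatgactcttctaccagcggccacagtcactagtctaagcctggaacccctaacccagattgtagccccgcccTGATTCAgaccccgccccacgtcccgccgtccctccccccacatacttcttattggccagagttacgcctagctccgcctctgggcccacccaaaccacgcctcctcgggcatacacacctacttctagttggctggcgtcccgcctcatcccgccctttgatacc
A match of these letters is a description and shows neither binding nor a cause.

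Per length of exon, Slc1a5 was the most abundant member in all 4 groups, at 278 normalized counts per kb of exon and M counts of the library in WT on SD, 117 in Ad-Yap/Taz-KO on SD, 306 in WT on HFD and 82.4 in Ad-Yap/Taz-KO on HFD. In WT on SD it was followed by Slc7a10 (79.4), Slc38a2 (71.0), Slc1a3 (46.5) and Slc3a2 (43.4). The single libraries of Slc7a10 (67.4 and 91.4) enclosed the mean of Slc38a2, so the order of these neighbours was within their spread. In Ad-Yap/Taz-KO on HFD the order after Slc1a5 was Slc3a2 (64.5), Slc38a2 (60.7), Slc7a10 (52.3) and Slc6a6 (51.0). There the single libraries of Slc7a10 (68.55 and 36.01) enclosed the means of Slc3a2, Slc38a2 and Slc6a6, so this order too was within the spread. Slc38a1 moved from rank 35 in WT on SD and 36 in WT on HFD to rank 24 in Ad-Yap/Taz-KO on SD and 19 on HFD. Slc1a5 made up 32.2% and 37% of the members' summed counts in WT on SD, 45.5% in both WT libraries on HFD, and 14% and 10.8% in Ad-Yap/Taz-KO on HFD.

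**Figure D2:**
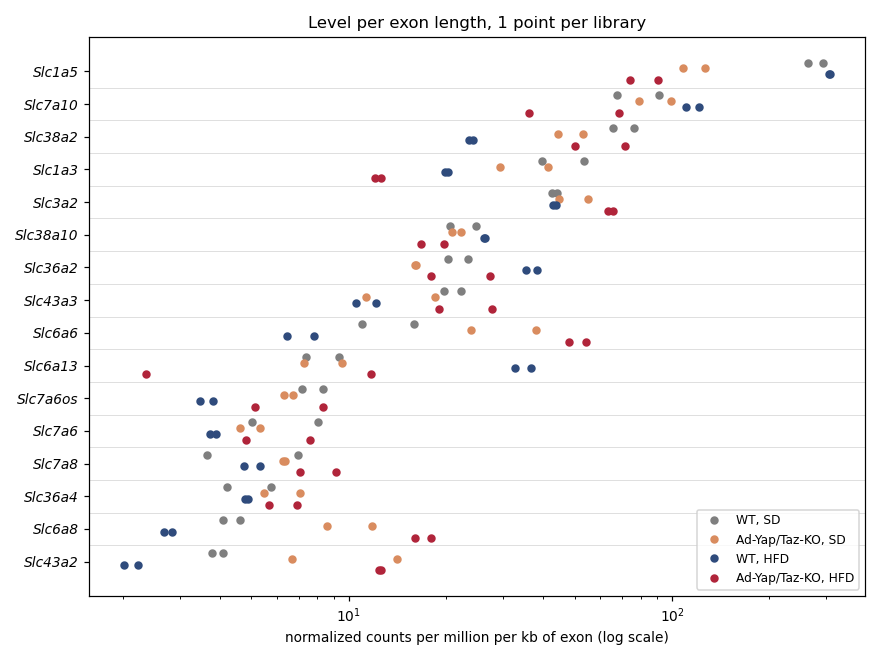
Level per kb of exon and M normalized counts of the library (x axis, log scale) for the 16 members among the first 12 of at least 1 group, with 1 point for each of the 8 libraries, coloured by group. Slc1a5 stands alone at the top in WT (278 on SD and 306 on HFD) and is lower in both knockout groups, whereas Slc6a6, Slc6a8 and Slc43a2 are higher there.

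Among the Slc1 carriers, Slc1a5 (ENSMUSG00000001918, chr7:16781340-16798274), the glutamine and small neutral amino acid exchanger ASCT2, fell in the knockout on both diets. It had 16985 and 19452 normalized counts in WT on SD, 6944 and 8938 in Ad-Yap/Taz-KO on SD, 26681 and 26706 in WT on HFD and 6506 and 4611 in Ad-Yap/Taz-KO on HFD. The groups did not overlap, and the knockout was 4.87-fold lower on HFD (log2 -2.29 ± 0.19, limma adjusted p = 2.9e-06) and 2.31-fold lower on SD (log2 -1.21 ± 0.19, limma adjusted p = 0.0023). The call on SD ended without the second WT SD library (log2 -1.11, adjusted p = 0.055). On the scale of log2 counts the fall on HFD was larger than that on SD, with an interaction of -1.08 ± 0.27 (limma adjusted p = 0.02). This interaction was not called after scaling to the same total, with quantile normalization or with no filter. Its call also ended without any 1 of 5 libraries, and it ranged from -1.33 to -0.83 when each library was left out. On SD the summed adipocyte markers of both genotypes overlapped. Per 1000 adipocyte marker counts, Slc1a5 had 61.1 and 66.5 counts in WT on SD, 29.0 and 26.7 in Ad-Yap/Taz-KO on SD, 52.6 and 53.5 in WT on HFD and 24.8 and 33.5 in Ad-Yap/Taz-KO on HFD, so relative to these markers too the knockout libraries lay below WT on both diets. Whether the fall differed between the diets was not tested on this scale.

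Slc1a4, which encodes ASCT1, a serine and alanine exchanger close to ASCT2, was a low gene with the same order. Its counts were 76 and 66 in WT on SD, 34 and 29 in Ad-Yap/Taz-KO on SD, 118 and 113 in WT on HFD and 16 and 37 in Ad-Yap/Taz-KO on HFD. The fall on HFD was 4.58-fold (log2 -2.20 ± 0.48, limma adjusted p = 0.0037), whereas the difference on SD (log2 -1.15 ± 0.48) did not pass the test. Slc1a3, the glutamate and aspartate carrier GLAST, had 7072 and 5373 counts in WT on SD, 3879 and 5977 in Ad-Yap/Taz-KO on SD, 3624 and 3522 in WT on HFD and 1849 and 1536 in Ad-Yap/Taz-KO on HFD. It was 2.12-fold lower in the knockout on HFD (log2 -1.08 ± 0.21, limma adjusted p = 0.0016), and it was lower on HFD than on SD in both genotypes. Per 1000 adipocyte marker counts the genotypes overlapped on HFD for both genes, Slc1a4 with 0.061 and 0.269 counts in the knockout against 0.233 and 0.226 in WT, and Slc1a3 with 7.05 and 11.2 against 7.15 and 7.06. Slc1a2, the glutamate carrier GLT-1, went the other way from a low level, with 14 and 24 counts in WT on SD, 71 and 34 in Ad-Yap/Taz-KO on SD, 21 and 10 in WT on HFD and 101 and 135 in Ad-Yap/Taz-KO on HFD. Its rise on HFD was 7.57-fold (log2 2.92 ± 0.58, limma adjusted p = 0.0022).

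The heavy chain Slc3a2, shared by several Slc7 light chains, was called in no comparison. It had 2414 and 2387 counts in WT on SD, 2991 and 2666 in Ad-Yap/Taz-KO on SD, 3183 and 3204 in WT on HFD and 3832 and 3460 in Ad-Yap/Taz-KO on HFD. Both knockout libraries lay above WT on each diet, but the log2 fold changes of 0.19 ± 0.14 on HFD and 0.23 ± 0.14 on SD did not pass the test (limma adjusted p = 0.33 and 0.44). Its light chain Slc7a8 (LAT2, large neutral amino acids) had 282 and 553, 491 and 529, 560 and 495, and 610 and 680 counts in WT on SD, Ad-Yap/Taz-KO on SD, WT on HFD and Ad-Yap/Taz-KO on HFD, and was called in no comparison. Slc7a5 (LAT1, leucine and other large neutral amino acids) had 347 and 274, 255 and 130, 245 and 201, and 346 and 404 counts in that order. The knockout lay below WT on SD (log2 -0.76 ± 0.30) and above it on HFD (log2 0.75 ± 0.30), neither of which passed the test, whereas the difference between both effects did (interaction 1.51 ± 0.43, limma adjusted p = 0.031). This interaction was not called with no filter, and its call ended without any 1 of 6 libraries. It ranged from 1.02 to 1.99 when each library was left out.

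Slc7a11, the cystine-glutamate exchanger xCT that supplies cysteine for glutathione, rose in the knockout on both diets. Its counts were 148 and 113 in WT on SD, 609 and 509 in Ad-Yap/Taz-KO on SD, 87 and 66 in WT on HFD and 483 and 489 in Ad-Yap/Taz-KO on HFD. The knockout was 4.28-fold higher on SD (log2 2.10 ± 0.25, limma adjusted p = 0.00029) and 6.34-fold higher on HFD (log2 2.67 ± 0.25, limma adjusted p = 7.6e-06), and these effects were not shown to differ (interaction 0.57 ± 0.36, limma adjusted p = 0.28). Its promoter window, printed above, is the one with the response element on both strands. Per 1000 macrophage marker counts, Slc7a11 had 32.1 and 24.6 counts in WT on SD, 21.8 and 33.1 in Ad-Yap/Taz-KO on SD, 39.8 and 29.0 in WT on HFD and 16.6 and 17.9 in Ad-Yap/Taz-KO on HFD, which overlapped on SD and were lower in the knockout on HFD. Slc7a15, a light chain relative named arpAT for its preference for aromatic amino acids, had 20 and 19, 101 and 158, 45 and 37, and 203 and 108 counts, with WT on SD first and Ad-Yap/Taz-KO on HFD last. It was 6.22-fold higher in the knockout on SD (log2 2.64 ± 0.44, limma adjusted p = 0.0032) and 3.57-fold higher on HFD (log2 1.83 ± 0.44, limma adjusted p = 0.0065). The latter call ended without the first Ad-Yap/Taz-KO library on HFD (adjusted p = 0.076) or without the second WT library on HFD (adjusted p = 0.051).

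Slc7a10 encodes Asc-1, a carrier of small neutral amino acids such as serine, alanine and glycine that is used as a surface marker of white fat cells. Counts were 2206 and 3062 in WT on SD, 2574 and 3539 in Ad-Yap/Taz-KO on SD, 4906 and 5341 in WT on HFD and 2488 and 1132 in Ad-Yap/Taz-KO on HFD. On SD the genotypes overlapped (log2 0.22 ± 0.30), and on HFD the knockout was 3.05-fold lower (log2 -1.61 ± 0.30, limma adjusted p = 0.0013). Set against 1000 adipocyte marker counts, its values of 7.93 and 10.5, 10.8 and 10.6, 9.67 and 10.7, and 9.49 and 8.24 lay in a narrow range across the groups, though on HFD both knockout libraries were below both WT libraries. Of its exon bases, 17.9% overlap Lrp3 on the other strand, and use of the strand in counting is not given in the sources used here. Smaller shares of Slc43a2 (9.2%), Slc7a2 (7%) and Slc38a10 (5.7%) overlap genes on the other strand.

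The arginine and lysine carriers Slc7a1 (CAT1) and Slc7a2 (CAT2) were both called higher in the knockout on HFD and neither was called on SD. Slc7a2 had 242 and 269 counts in WT on SD, 232 and 275 in Ad-Yap/Taz-KO on SD, 57 and 63 in WT on HFD and 397 and 451 in Ad-Yap/Taz-KO on HFD. On SD the genotypes overlapped (log2 -0.01 ± 0.24), on HFD the knockout was 6.96-fold higher (log2 2.80 ± 0.24, limma adjusted p = 3.5e-06), and these effects differed (interaction 2.81 ± 0.34, limma adjusted p = 0.0014). Slc7a1 had 562 and 520, 780 and 662, 435 and 285, and 918 and 1159 counts in WT on SD, Ad-Yap/Taz-KO on SD, WT on HFD and Ad-Yap/Taz-KO on HFD. The knockout libraries lay above WT on both diets, by 1.55 ± 0.22 on the log2 scale on HFD (limma adjusted p = 0.00021) and by 0.41 ± 0.22 on SD, where the test was not passed. Relative to 1000 macrophage marker counts, Slc7a2 had 52.5 and 58.5 counts in WT on SD against 8.32 and 17.9 in the knockout, and 26.1 and 27.7 in WT on HFD against 13.6 and 16.5. Slc7a1 was lower in the knockout on this scale too, with 28 and 43.1 against 122 and 113 in WT on SD. On HFD it had 31.6 and 42.5 against 199 and 125 in WT.

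**Figure D3:**
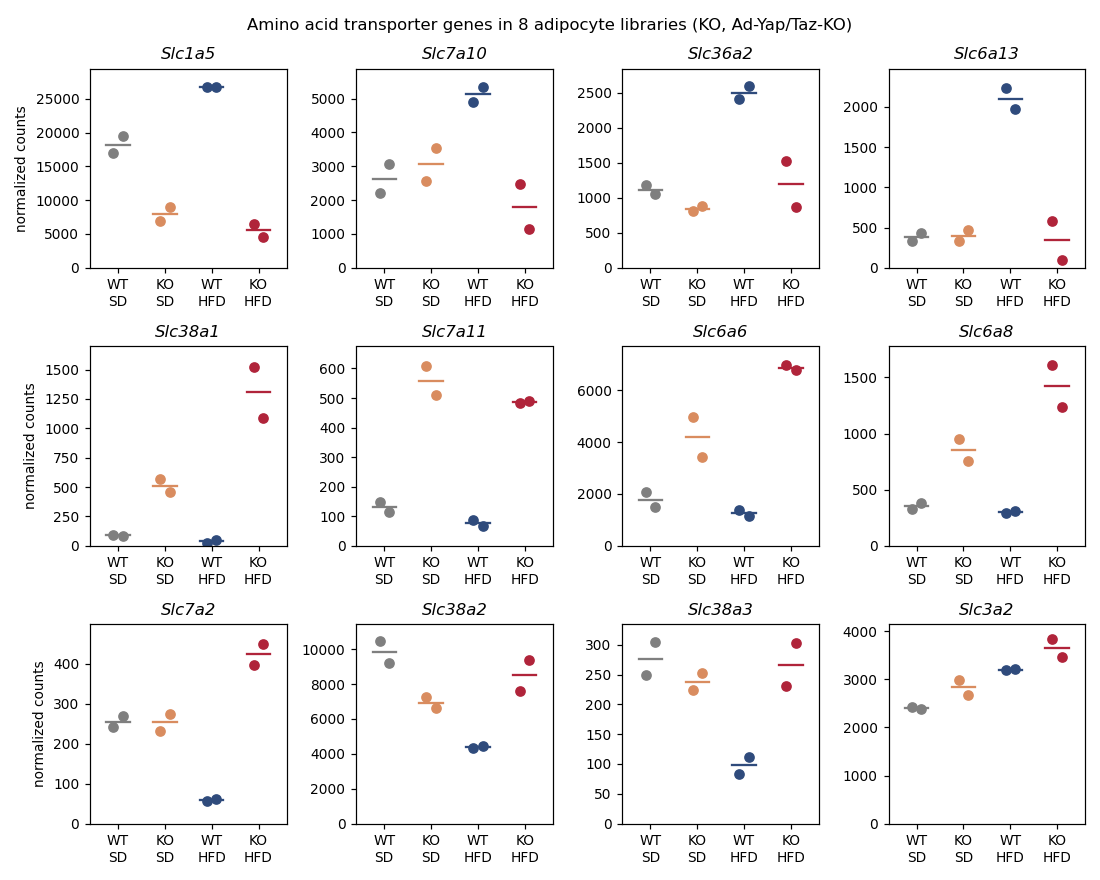
Normalized counts (y axis, linear, from 0) of 12 members in each group, with 1 point per library and the mean of the pair as a line. In the top row the Slc7a10, Slc36a2 and Slc6a13 values of WT on HFD stand above all others and Slc1a5 is lower in both knockout groups, in the middle row both knockout groups exceed both WT groups, and in the bottom row WT on HFD is lowest for Slc7a2, Slc38a2 and Slc38a3 while Slc3a2 spans 2387 to 3832.

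Of 10 tested members of the Slc38 family, 4 were called higher in the knockout on HFD, 40% beside 17.1% of all genes. In the same comparison 1 was lower, 10% beside 15.1% of all genes. Without Slc38a4 and Slc38a8, which passed the filter only through the knockout on HFD, 3 of 8 were higher (37.5% beside 17% of genes) and 1 was lower (12.5% beside 15.5%). Slc38a1 (SNAT1, sodium-coupled uptake of glutamine and alanine) had the largest fold change of all members, with 93 and 84 counts in WT on SD, 567 and 455 in Ad-Yap/Taz-KO on SD, 24 and 49 in WT on HFD and 1526 and 1088 in Ad-Yap/Taz-KO on HFD. The knockout was 5.69-fold higher on SD (log2 2.51 ± 0.32, limma adjusted p = 0.00051) and 36.5-fold higher on HFD (log2 5.19 ± 0.32, limma adjusted p = 2.8e-07), and the effects differed (interaction 2.68 ± 0.46, limma adjusted p = 0.0049). Per 1000 macrophage marker counts it had 20.2 and 18.3 counts in WT on SD, 20.3 and 29.6 in Ad-Yap/Taz-KO on SD, 11 and 21.5 in WT on HFD and 52.5 and 39.9 in Ad-Yap/Taz-KO on HFD. On both diets both knockout libraries were above WT on this scale, on SD with 20.3 against 20.2 at the closest.

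Slc38a2 (SNAT2, the system A carrier that cells raise when amino acids are scarce) had the highest counts of the family, not divided by length. It had 10468 and 9199 counts in WT on SD, 7234 and 6645 in Ad-Yap/Taz-KO on SD, 4361 and 4462 in WT on HFD and 7618 and 9381 in Ad-Yap/Taz-KO on HFD. The knockout lay above WT on HFD (log2 0.94 ± 0.16, limma adjusted p = 0.00064) and below it on SD, where the log2 fold change of -0.50 ± 0.16 was not called (limma adjusted p = 0.1). The effects differed, with an interaction of 1.44 ± 0.22 (limma adjusted p = 0.0034). Slc38a3 (SNAT3, a system N carrier of glutamine and histidine) was also lowest in WT on HFD, with 249 and 304, 224 and 252, 83 and 112, and 230 and 303 counts in the order WT on SD, Ad-Yap/Taz-KO on SD, WT on HFD and Ad-Yap/Taz-KO on HFD. Its log2 fold change on HFD was 1.44 ± 0.27 (limma adjusted p = 0.0013) and the interaction 1.65 ± 0.38 (limma adjusted p = 0.014). The interaction was not called with no filter, and its call ended without any 1 of 4 libraries.

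Slc38a10, a less studied member whose promoter window is shown above, fell in the knockout on HFD by 0.92 ± 0.17 on the log2 scale (limma adjusted p = 0.0014). Counts were 2049 and 2526 in WT on SD, 2203 and 2264 in Ad-Yap/Taz-KO on SD, 3525 and 3537 in WT on HFD and 2171 and 1597 in Ad-Yap/Taz-KO on HFD, and scaling every library to the same total ended the call. Per 1000 adipocyte marker counts the order on HFD was the opposite, with 8.28 and 11.6 counts in the knockout against 6.95 and 7.09 in WT. The lysosomal arginine sensor Slc38a9, which reports to mTORC1, had 170 and 138, 175 and 130, 172 and 144, and 251 and 240 counts. Only the last group, Ad-Yap/Taz-KO on HFD, lay apart from the others, and its log2 fold change of 0.64 ± 0.27 against WT was not called (limma adjusted p = 0.086). Slc38a8 was at 0 in both WT libraries on HFD and at 5 and 21 in Ad-Yap/Taz-KO. The other 6 libraries averaged 4.83 counts, so it too entered the test only through the group in which it is high, and its values are given with no test.

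Of the proton-coupled carriers, Slc36a2 (PAT2, glycine, alanine and proline), known from the surface of brown and beige fat cells, had 1177 and 1051 counts in WT on SD, 809 and 882 in Ad-Yap/Taz-KO on SD, 2407 and 2595 in WT on HFD and 1532 and 873 in Ad-Yap/Taz-KO on HFD. On HFD it was 2.16-fold lower in the knockout (log2 -1.11 ± 0.22, limma adjusted p = 0.0021), and on SD the difference of -0.40 ± 0.22 did not pass the test. Per 1000 adipocyte marker counts the order on HFD was the opposite, with 5.84 and 6.35 counts in the knockout against 4.75 and 5.2 in WT. Slc36a1 (PAT1, mainly at the lysosome) had 193 and 182, 195 and 127, 323 and 341, and 281 and 223 counts and was called only as higher on HFD than on SD in WT (log2 0.82 ± 0.26, limma adjusted p = 0.045).

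**Figure D4:**
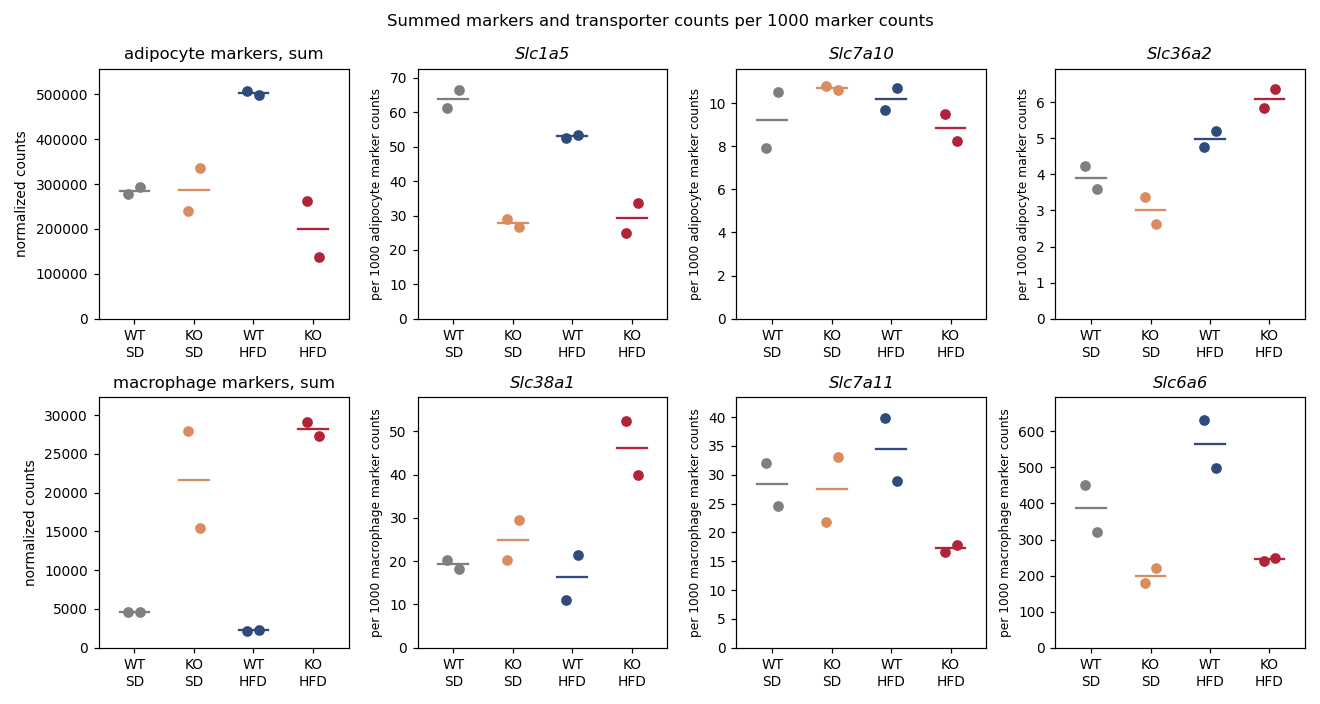
Left column, summed normalized counts of 10 adipocyte markers (top) and 10 macrophage markers (bottom) per library (points) with the mean of each pair (lines). The other panels give counts of 3 members per 1000 adipocyte marker counts (top) and of 3 others per 1000 macrophage marker counts (bottom). In the top row Slc1a5 is lower in both knockout groups (24.8 to 33.5 against 52.6 to 66.5), and Slc7a10 spans 7.93 to 10.8. Slc36a2 is higher in the knockout on HFD (5.84 and 6.35 against 4.75 and 5.2). In the bottom row Slc38a1 is highest in Ad-Yap/Taz-KO on HFD (39.9 and 52.5). Slc7a11 (16.6 and 17.9 against 39.8 and 29) and Slc6a6 (240 and 250 against 632 and 497) are lower in the knockout on HFD.

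In the Slc6 family the taurine carrier Slc6a6 and the creatine carrier Slc6a8 rose on both diets. Slc6a6 had 2080 and 1478 counts in WT on SD, 4968 and 3411 in Ad-Yap/Taz-KO on SD, 1382 and 1131 in WT on HFD and 6972 and 6803 in Ad-Yap/Taz-KO on HFD. It rose 2.35-fold on SD (log2 1.23 ± 0.21, limma adjusted p = 0.0034) and 5.51-fold on HFD (log2 2.46 ± 0.21, limma adjusted p = 2.9e-06). Without the second WT SD library the change on SD was 0.98 and not called (adjusted p = 0.081). Slc6a8 had 330 and 382 counts in WT on SD, 949 and 754 in Ad-Yap/Taz-KO on SD, 293 and 309 in WT on HFD and 1610 and 1240 in Ad-Yap/Taz-KO on HFD. The rise was 2.38-fold on SD (log2 1.25 ± 0.20, limma adjusted p = 0.0021) and 4.68-fold on HFD (log2 2.23 ± 0.20, limma adjusted p = 4.4e-06). Per 1000 macrophage marker counts both were lower in the knockout on each diet, Slc6a6 at 178 and 222 against 451 and 321 on SD and Slc6a8 at 34.0 and 49.0 against 71.6 and 83.0.

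Slc6a13 (GAT2, which carries GABA and taurine) was highest in WT on HFD. It had 332 and 431 counts in WT on SD, 327 and 470 in Ad-Yap/Taz-KO on SD, 2228 and 1976 in WT on HFD and 586 and 102 in Ad-Yap/Taz-KO on HFD. The knockout was 8.54-fold lower on HFD (log2 -3.09 ± 0.54, limma adjusted p = 0.00095) and overlapped WT on SD (log2 0.05 ± 0.54). The size of the fall on HFD depended on which knockout library was kept. It was 3.58-fold (log2 -1.84) without the second Ad-Yap/Taz-KO library and 20.4-fold (log2 -4.35) without the first, and it was called in both cases. The lowest value belonged to the library with the lowest adipocyte marker sum, and per 1000 of these markers the knockout had 2.23 and 0.742 counts on HFD against 4.39 and 3.96 in WT.

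The calls of Slc6a9 and Slc6a17 on HFD ended when single libraries were left out. Slc6a9, the glycine carrier GlyT1, had 70 and 84, 22 and 77, 20 and 28, and 69 and 123 counts in WT on SD, Ad-Yap/Taz-KO on SD, WT on HFD and Ad-Yap/Taz-KO on HFD, a log2 fold change of 1.92 ± 0.57 on HFD (limma adjusted p = 0.021). The call ended without the second Ad-Yap/Taz-KO library on HFD (adjusted p = 0.17), the first WT library on HFD (0.12) or the second (0.059), and 27.8% of its exon bases overlap Ccdc24 on the other strand. Slc6a17, a vesicle carrier of neutral amino acids best known from neurons, had 128 and 53, 163 and 31, 20 and 1, and 53 and 128 counts and a log2 fold change of 3.69 ± 1.00 on HFD (limma adjusted p = 0.013), which ended as a call without the second Ad-Yap/Taz-KO library (adjusted p = 0.11) or the second WT library (0.15) on HFD. Its log2 fold change ranged from 1.99 without the second WT library on HFD to 5.38 without the first. Slc6a7, the proline carrier, was at 0 in both WT libraries on HFD and at 19 and 23 in Ad-Yap/Taz-KO. The other 6 libraries averaged 2.5 counts, so it was tested only through the group in which it is high, and these values are given with no test.

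Members of the facilitative Slc43 family were called in both directions. Slc43a2 (LAT4, branched-chain amino acids and phenylalanine), whose window with the TEAD motif is shown above, had 636 and 602 counts in WT on SD, 2182 and 1139 in Ad-Yap/Taz-KO on SD, 427 and 467 in WT on HFD and 2165 and 1859 in Ad-Yap/Taz-KO on HFD. It rose 2.55-fold on SD (log2 1.35 ± 0.25, limma adjusted p = 0.0059) and 4.48-fold on HFD (log2 2.17 ± 0.25, limma adjusted p = 3.3e-05), and the call on SD ended without either WT SD library (adjusted p = 0.057 without the first and 0.086 without the second). Per 1000 macrophage marker counts, Slc43a2 was lower in the knockout on both diets. It had 78.3 and 74.1 against 138 and 131 in WT on SD, and 74.4 and 68.2 against 195 and 205 in WT on HFD. Slc43a1 (LAT3, the same substrates as LAT4) had 528 and 335, 99 and 197, 184 and 164, and 123 and 114 counts in the order WT on SD, Ad-Yap/Taz-KO on SD, WT on HFD and Ad-Yap/Taz-KO on HFD. The knockout was 3-fold lower on SD (log2 -1.58 ± 0.34, limma adjusted p = 0.016) and not called on HFD (log2 -0.55 ± 0.34). The call on SD ended without the first Ad-Yap/Taz-KO library on SD (adjusted p = 0.095) or the first WT library on SD (0.2). Slc43a3, which carries purine nucleobases and no amino acids, had 1539 and 1394, 1276 and 854, 985 and 1132, and 1461 and 1841 counts. Its log2 fold change of 0.63 ± 0.20 on HFD (limma adjusted p = 0.028) was lost without the second Ad-Yap/Taz-KO library on HFD (adjusted p = 0.18), or the first (0.19) or second (0.085) WT library on HFD.

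More members were called for the diet in WT than in Ad-Yap/Taz-KO, and these counts were not themselves compared by a test. In WT 5 members were higher on HFD than on SD, 11.1% of those tested beside 8.74% of all genes, and 8 were lower, 17.8% beside 9.22% of all genes. The lower ones were Slc1a3, Slc38a1, Slc38a2, Slc38a3, Slc43a1, Slc6a17, Slc7a2 and Slc7a6os, the last of which is a neighbour of the light chain gene Slc7a6 and no carrier (545 and 479, 439 and 452, 308 and 333, and 372 and 522 counts, log2 -0.67 ± 0.21, limma adjusted p = 0.04). Slc7a2 fell 4.2-fold (log2 -2.07 ± 0.24, limma adjusted p = 0.0003), Slc38a3 2.83-fold (log2 -1.50 ± 0.27, limma adjusted p = 0.0034) and Slc38a2 2.22-fold (log2 -1.15 ± 0.16, limma adjusted p = 0.00073). These 3 were the only calls of the 13 that were kept under every alternative and without any single library. The higher ones were Slc36a1, Slc36a2, Slc38a10, Slc6a13 and Slc7a10, with Slc6a13 5.54-fold higher (log2 2.47 ± 0.54, limma adjusted p = 0.0096), Slc36a2 2.25-fold (log2 1.17 ± 0.22, limma adjusted p = 0.0047) and Slc7a10 1.97-fold (log2 0.98 ± 0.30, limma adjusted p = 0.036). With WT HFD as 1 sample 3 members were called (6.67% beside 2.87% of all genes), and without the first or second WT SD library 4 and 7 were called, without the first or second WT HFD library 5 and 4. The share of all genes called fell from 18% to 3.34%, 7.45%, 5.59% and 4.19% in the same order. The 13 calls became 2 higher and 15 lower after scaling to the same total (4.44% and 33.3%, beside 2.48% and 18.9% of all genes), 2 and 11 with upper-quartile scaling (beside 5.79% and 11.7% of all genes), and 2 and 6 with quantile normalization (beside 4.64% and 6.98%).

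In Ad-Yap/Taz-KO no member was higher on HFD than on SD at these limits, where 0.383% of all genes were called higher, and 1, Slc1a3, was lower (2.22% of members beside 0.691% of all genes). The fall of Slc1a3 was 1.51 ± 0.21 on the log2 scale (limma adjusted p = 0.0068). At an unadjusted p under 0.05 in limma, 10 members were higher, 22.2% beside 7.79% of all genes, and 4 were lower, 8.89% beside 7.66%. Without the second Ad-Yap/Taz-KO library on SD the call of Slc1a3 ended (adjusted p = 0.061) and none was left, whereas without the first Ad-Yap/Taz-KO library on SD 7 members were called (15.6% beside 5.11% of all genes), and without the first Ad-Yap/Taz-KO library on HFD 4 (8.89% beside 3.93%). With all libraries 1.07% of all genes were called in either direction.

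**Figure D5:**
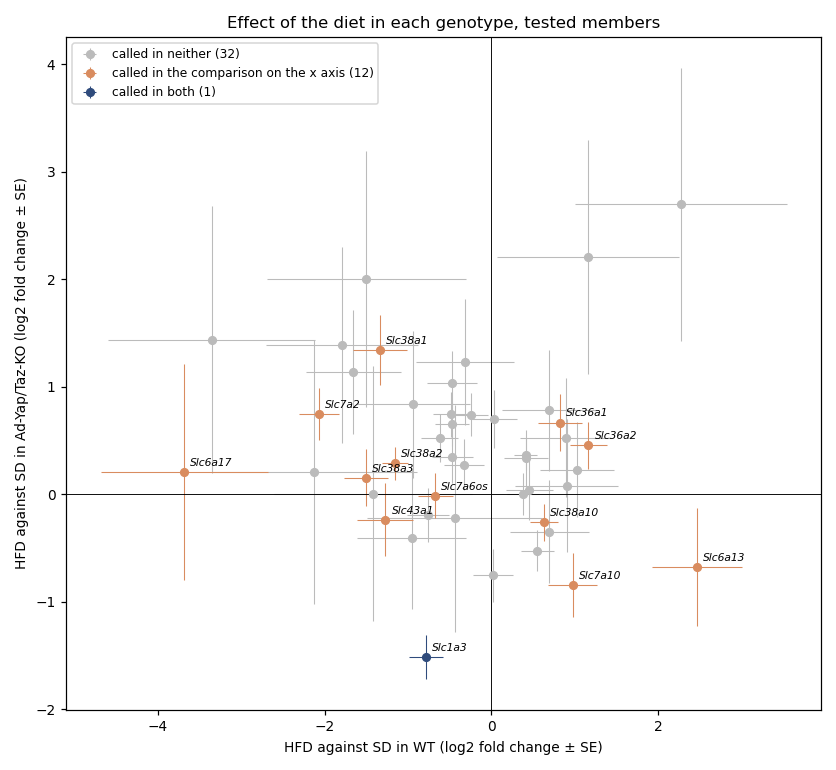
Log2 fold change of HFD against SD in Ad-Yap/Taz-KO (y axis) against that in WT (x axis) for the 45 tested members, each point 1 gene with its standard error as bars. The 12 members called in WT and not in Ad-Yap/Taz-KO spread along the x axis from Slc6a17 at -3.69 (-1.99 without the second WT HFD library) to Slc6a13 at 2.47, and Slc1a3, at -0.79 and -1.51, was called in both.

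Whether the effect of the knockout depended on the diet was tested with the interaction of genotype and diet. For 10 members the effect on HFD was more positive than on SD, 22.2% of those tested beside 8.69% of all genes, and for 4 it was more negative, 8.89% beside 8.73% of all genes. The first were Slc38a1, Slc38a2, Slc38a3, Slc43a3, Slc6a6, Slc6a8, Slc6a9, Slc7a1, Slc7a2 and Slc7a5, and the others Slc1a5, Slc38a10, Slc6a13 and Slc7a10. Scaling to the same total gave 13 and 2 (28.9% and 4.44%, beside 13.8% and 3.27% of all genes), and quantile normalization 9 and 2 (beside 6.79% and 4.98%). With WT HFD as 1 sample 3 calls were left (6.67% beside 2.75% of all genes), those of Slc38a1, Slc38a2 and Slc7a2. Leaving out the first WT SD library left 3 calls, the second 7, the first WT HFD library 5, the second 4, the second Ad-Yap/Taz-KO library on SD 5 and that on HFD 7. The share of all genes called fell from 17.4% to 2.82%, 8.51%, 5.43%, 4.03%, 7.47% and 7.51% in the same order. Marker lists differed between the diets in the same test. Called more positive were 8 of 10 macrophage, 5 of 6 fibroblast and progenitor and 4 of 5 endothelial markers, called more negative were 9 of 10 adipocyte markers, and their part in these results was not tested.

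Members with a mean of at least 50 that were called in no comparison were Slc1a1, Slc36a4, Slc38a6, Slc38a7, Slc38a9, Slc3a2, Slc7a6, Slc7a7 and Slc7a8. The other 11 tested members had means from 5.5 to 31.1, and of these only Slc38a8 and Slc6a7 passed the limits of a call. As described above, both entered the test only through the group in which they are high, so nothing is drawn from these calls.

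Genes that work with these carriers were followed as lists. Of 15 tested amino acid carriers of other families, mainly mitochondrial and lysosomal ones, 6 were higher and 1 was lower in the knockout on HFD (40% and 6.67%, beside 17.1% and 15.1% of all genes), with a median log2 fold change of 0.68 beside 0.095 over all genes. On SD 2 were higher and none was lower (13.3% higher beside 3.21% of all genes). Slc15a3, a lysosomal peptide and histidine carrier, was among those higher on both diets (log2 4.26 ± 0.26 on HFD, limma adjusted p = 2.6e-07, and 2.21 ± 0.26 on SD, limma adjusted p = 0.00028).

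The list of ATF4 and its amino acid response genes did not move as 1 group. Of 22 genes 3 were higher in the knockout on HFD, 13.6% beside 17.1% of all genes. Another 9 were lower, 40.9% beside 15.1% (median -0.54 beside 0.095 over all genes). On SD 2 were higher, 9.09% beside 3.21% of all genes, and 3 were lower, 13.6% beside 1.5% (median -0.12). Atf4 itself had 4525 and 4372, 4258 and 3897, 3301 and 3328, and 4548 and 4945 counts, and its change on HFD of 0.52 ± 0.14 (limma adjusted p = 0.012) stayed under the fold limit. Asns, the asparagine synthetase often used as a readout of ATF4, had log2 fold changes of -0.11 ± 0.21 on HFD and 0.29 ± 0.21 on SD, neither of which passed the test. Trib3 had log2 fold changes of -0.44 ± 0.42 and -0.56 ± 0.42, not called either. Phgdh, the first enzyme of serine synthesis, fell on HFD (log2 -2.40 ± 0.22, limma adjusted p = 4.8e-06), as did Sesn2 (log2 -1.30 ± 0.27, limma adjusted p = 0.0026), whereas Gdf15, a secreted stress factor, rose (log2 2.89 ± 0.25, limma adjusted p = 4.1e-06).

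Of 24 tested genes of amino acid sensing by mTORC1, 4 were higher in the knockout on HFD, 16.7% and near the 17.1% of all genes. Another 8 were lower, 33.3% beside 15.1% of all genes (median -0.50). On SD 1 was higher, 4.17% beside 3.21% of all genes. Fnip2, a partner of folliculin at the lysosome, rose on HFD by 3.05 ± 0.20 and on SD by 1.66 ± 0.20 on the log2 scale (limma adjusted p = 3.3e-07 and 0.00026), and Deptor, an inhibitor of mTOR, fell by 1.89 ± 0.15 on HFD (limma adjusted p = 1.9e-06). Among 11 tested genes of cystine and glutathione use, 1 was higher and 3 lower on HFD (9.09% and 27.3%, beside 17.1% and 15.1% of all genes, median -0.59) and none was called on SD, where Slc7a11 rose. Both subunits of the enzyme that starts glutathione synthesis, Gclc and Gclm, had log2 fold changes of 0.25 ± 0.16 and -0.41 ± 0.17 on HFD and were not called. Gpx4, which uses glutathione to reduce lipid peroxides, fell by 1.41 ± 0.16 on HFD (limma adjusted p = 4.1e-05). Of 12 genes of glutamine and glutamate use 2 were higher and 3 lower on HFD (16.7% and 25%, beside 17.1% and 15.1% of all genes, median -0.36), among the lower ones the alanine aminotransferases Gpt (log2 -2.53 ± 0.35, limma adjusted p = 0.00017) and Gpt2 (log2 -1.70 ± 0.22, limma adjusted p = 8.8e-05), and 1 was higher on SD, 8.33% beside 3.21% of all genes. Across these lists the summed adipocyte markers were lower and the summed macrophage markers higher in the knockout on HFD, and their part was not tested.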

How the data were processed

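RNA of white adipocytes, in 8 libraries with 2 per group, was depleted of ribosomal RNA, converted with a stranded total RNA kit and sequenced in single-end reads. Per the submitters' processing notes and the methods of the study, reads were trimmed with Reaper, aligned to GRCm38 with STAR 2.5.2b and counted on exons with featureCounts 1.5.1, leaving out reads over several genes or places, and tested with DESeq2 1.14.1. The values the authors deposited are a score, namely gene counts scaled by 1 size factor for each library, then rounded to integers. Rounding kept whole reads from being recovered, so count models were not used here. Whether counting used the strand is not given in the sources used here.

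Genes with a mean of at least 5 (18800 of 30387) were tested with limma 3.58.1 (R 4.3.3, trended eBayes) on log2(value + 1), in 1 fit of 4 group means without covariates, with degrees of freedom of 4 (residual) and 8.59 (prior). The contrasts were knockout against WT for each diet, the diet within each genotype, and their interaction. Calls needed an adjusted p (Benjamini-Hochberg) no higher than 0.05 and an absolute log2 change reaching 0.59, the limits of the study's methods. An exact permutation test of 2 against 2 libraries cannot give a two-sided p under 0.333 and was not used. According to the study the libraries of a group come from separate mice, while the labels do not tie libraries to animals. If the libraries are not separate mice, p-values measure only the technical spread between them. Reads carry no molecular identifiers, and a value of 0 allows up to 3 counts, for counting error only.

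The members and the lists were chosen with earlier results of these data known. Not every member is reported here by name. Full values are given for members with a mean of at least 50 called in any contrast and for 10 members taken whatever their values (Slc3a2, Slc7a5, Slc7a8, Slc7a10, Slc7a11, Slc1a5, Slc38a1, Slc38a2, Slc36a2, Slc38a9). From the other lists only Atf4, Asns, Trib3, Sesn2, Gclc, Gclm and at most 4 called genes with a mean of at least 50, by fold change on HFD, could be named. Exon lengths and overlaps came from GENCODE vM21, and promoter windows from RefSeq (GRCm38.p6). The alternatives were pseudocounts of 0.1 and 8, no filter or a mean of at least 50, 3 other scalings, fitting the compared groups alone, robust eBayes, a replicate block, WT HFD averaged to 1 sample, other limits of a call, and leaving out each library. Marker lists of adipocytes, macrophages, endothelial cells, fibroblasts, mesothelial cells and lymphocytes served to check the cell type and to set values beside the results, and the sums of adipocyte and macrophage markers also as denominators of the members' counts. Endothelial markers had 1 of 5 called higher in the knockout on HFD, mesothelial markers 1 of 5 higher and 1 lower, and lymphocyte markers 1 of 3 tested higher. Python 3.11.15, pandas 2.3.3, numpy 2.4.6 and matplotlib 3.10.9 made tables and figures.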

Additional observations from a re-analysis of the deposited data

Results flagged for a closer look

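In 14 members the knockout acted differently on HFD and on SD by the limma test of the interaction (effect on HFD minus effect on SD, log2). Of these, 10 were in the positive direction, 22.2% of those tested beside 8.69% of all genes. The other 4 were in the negative direction, 8.89% and near the 8.73% of all genes. The largest differences were 2.81 for Slc7a2, 2.79 for Slc6a9 and 2.68 for Slc38a1 in the positive direction and -3.15 for Slc6a13 in the negative. That of Slc6a13 was -1.89 without the second Ad-Yap/Taz-KO library on HFD and -4.40 without the first, and that of Slc6a9 was 1.91 and not called without the first Ad-Yap/Taz-KO library on SD (limma adjusted p = 0.065) and 3.67 without the second. Among the other carriers the difference was 1.65 for Slc38a3, 1.51 for Slc7a5, 1.44 for Slc38a2, 1.23 for Slc6a6, 1.138 for Slc7a1, 1.12 for Slc43a3 and 0.98 for Slc6a8. It was -1.82 for Slc7a10, -1.08 for Slc1a5 and -0.90 for Slc38a10. For Slc38a2, Slc43a3 and Slc7a5 the knockout lay below WT in both libraries on SD and above WT in both on HFD. For Slc1a5, Slc38a1, Slc6a6 and Slc6a8 the effect was called in the same direction on both diets and was larger on HFD. Of the 14 differences only those of Slc38a1, Slc38a2 and Slc7a2 were called under every alternative and without any single library.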

How the results depend on the processing

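The counts of called members kept their size within 1.5 times under all 13 alternatives for the knockout against WT on HFD (23 called) and on SD (8 called). Leaving out 1 library gave 18 to 25 on HFD and 5 to 9 on SD. The count for HFD against SD in WT (13) was 8 with a log2 limit of 1, 4 with no filter on low values, 8 with quantile normalization, 3 with WT HFD averaged to 1 sample, and 4 to 16 when each library was left out. For HFD against SD in Ad-Yap/Taz-KO (1) it was 0 with no filter and in a fit of only the groups compared, 2 with a pseudocount of 8 and with quantile normalization, and 0 to 7 when each library was left out. For the interaction (14) it was 3 with no filter, 3 with WT HFD averaged, and 3 to 17 when each library was left out. The share of all genes called moved too. For HFD against SD in WT it went from 18% to 10.6%, 5.6% and 11.6% with the log2 limit, no filter and quantile normalization. The members' shares were 17.8%, 6.78% and 17.8%. In the knockout 1.07% of all genes became 0.00987% with no filter and 0% with only the groups compared. A pseudocount of 8 gave 1.76% and quantile normalization 1.62%. For the interaction 17.4% became 2.37% with no filter, beside 5.08% of members. With no filter 30387 genes were tested in place of 18800, and with WT HFD averaged 1 sample fewer entered the fit. For the knockout against WT on each diet, leaving out 1 library also changed the share of all genes called, down in some fits and up in others. The ranges given for the members are therefore not a property of the members alone. The cause was not tested for any of these changes.

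Of the named calls, 16 of 21 on HFD, 6 of 8 on SD, 3 of 13 for the diet in WT, 0 of 1 for the diet in the knockout and 3 of 14 interactions were kept under every alternative other than leaving out a library, and 15, 4, 3, 0 and 3 also without any single library. No called value reversed its direction. Scaling to the same total moved the median log2 fold change of all genes from 0.095 to 0.48 for the knockout on HFD, from -0.078 to -0.48 for the diet in WT and from 0.098 to 0.52 for the interaction.

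The replicate block gave 22 members on HFD, 8 on SD, 11 for the diet in WT, 1 in Ad-Yap/Taz-KO and 14 for the interaction. In the same order these were 48.9%, 17.8%, 24.4%, 2.22% and 31.1% of members. Beside them stood 30.4%, 3.83%, 15.6%, 0.596% and 13.7% of all genes. Without the block 32.2%, 4.71%, 18%, 1.07% and 17.4% of all genes were called. Over all genes tested, deviations of the first replicates correlated between groups at -0.107 to 0.0397. Such a correlation cannot show whether libraries with the same number share a litter or a day of isolation, which the labels do not give. Count models (edgeR, DESeq2) were not run since whole reads could not be recovered. The 14 members with a mean under 5 were left out by the filter, and when limma was run with no filter none of them was called, with 1 at an unadjusted p under 0.05 in each contrast other than the interaction, which had 0.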
